A study of Mus musculus with 7 samples.

Results

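The genes described here are 10 genes of the antioxidant defence and of the NRF2 pathway that controls much of it: Nfe2l2, which encodes the transcription factor NRF2, Keap1, Sod1, Sod2, Cat, Gpx1, Gclc, Txnrd1, Nqo1 and Hmox1. All accessible regions that overlapped the body of one of these genes or the 10 kb on either side were taken, which gave 63 of the 55680 regions measured. All 10 genes had an accessible promoter, here a region that overlapped 200 bp on either side of a transcription start site (TSS). Of the other 53 regions, 1 lay at a second start site of Gclc, 6 at the promoter of a neighbouring gene, 26 inside the gene and 20 outside it.

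NRF2 is held in the cytoplasm by KEAP1, which hands it to a ubiquitin ligase for breakdown. Oxidants and electrophiles modify cysteines of KEAP1, after which NRF2 accumulates, pairs with a small MAF protein and binds antioxidant response elements in enhancers and promoters of genes for glutathione synthesis, thioredoxin reduction, quinone reduction and haem breakdown. Superoxide dismutases and catalase remove superoxide and hydrogen peroxide directly, and liver is among the tissues richest in catalase.

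Chromatin accessibility was measured by ATAC-seq, in which a transposase inserts sequencing adapters into exposed DNA, in liver of male C57BL/6N mice. No treatment or transgene is given for either group. The young group comprised 3 libraries from mice aged 3 months and the aged group 4 libraries from mice aged 18 months. The deposited design traces the aged libraries to 3 animals, 1 of which gave 2 lobules, without saying which libraries share an animal. P-values therefore measured the spread between libraries, and the counts in regions summed to between 4474652 and 25461110 per library.

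Accessibility is given as CPM, the counts relative to the library total after TMM scaling, and the change with age as the log2 fold change of aged over young with its standard error (SE) and an adjusted p from edgeR's quasi-likelihood test over all regions. The promoter of Cat was the only 1 of these 63 regions that was more accessible in aged liver, with an adjusted p under 0.05, where 2.44% of all regions were. Another 2 regions were less accessible, an intronic region next to Sod1 and an exonic region of Sod2, where 3.30% of all regions were. In bulk liver, fewer cells of a type and less accessibility per cell cannot be told apart. Without adjustment, 11 of the 63 regions had a p under 0.05 with a higher and 9 with a lower value in aged liver, against 11.9% and 12.7% of all regions. The median log2 fold change of the 63 regions was 0.027, and that of all regions was -0.035. The number of calls moved with the scaling of the libraries. It was 7 more and 2 less accessible with offsets fitted on GC content (6.28% and 3.67% of all regions), 1 and 3 with total counts (0.975% and 5.26%), and 0 in both directions with offsets fitted on the mean abundance of the regions. DESeq2, which differs in both the scaling and the test, called 3 more and 2 less accessible (4.96% and 3.47% of all regions).

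Every aged library lay above every young one in 11 of the 63 regions, which was the case in 10.20% of all regions. Every aged library lay below every young one in 6 regions, against 11.60% of all regions. The groups overlapped in the remaining regions. The 34 regions with a log2 fold change above 0 and the 29 below it were spread over the genes, and both signs occurred at 8 of the 10. Of all regions, 46.6% were above 0.

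**Figure D1:**
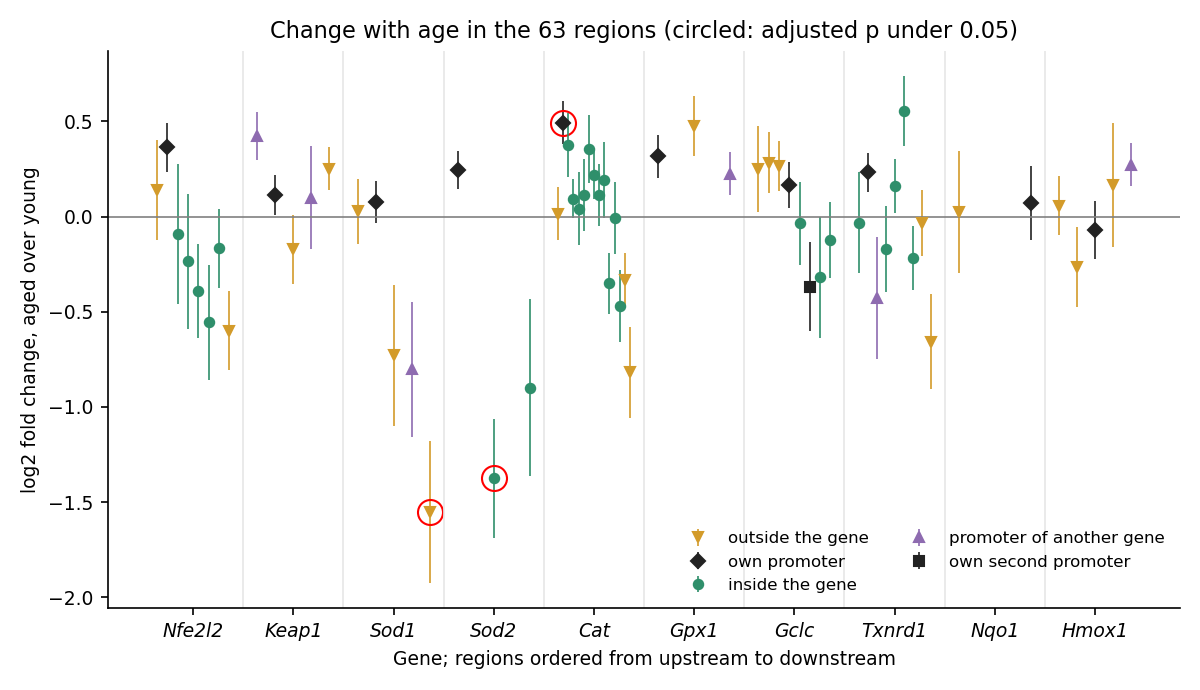
Log2 fold change of aged over young liver (y axis, with its SE as bars) for each of the 63 regions, grouped by gene and ordered from upstream to downstream, with symbols for the position of the region. The 3 circled regions, at the Cat promoter and next to or within Sod1 and Sod2, had an adjusted p under 0.05.

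The antioxidant response element was searched on both strands of all regions as the consensus core TGACNNNGC and as the full element TGACTCAGC, the sequence shared by the strongest known elements. The core occurred in 26 of the 63 regions and in 34.7% of all regions. The full element occurred in 5 of the 63 regions, against 2.37% of all regions, and these 5 stretches are shown from GRCm38, on the strand given, because they carry the binding sequence of NRF2. Capitals mark the full element.
Hmox1, region at -9592 bp, chr8:75083934-75084029, minus strand: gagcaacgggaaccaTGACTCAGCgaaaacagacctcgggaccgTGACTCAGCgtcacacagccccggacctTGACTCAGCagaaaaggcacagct
Hmox1, region at -3851 bp, chr8:75089735-75089773, minus strand: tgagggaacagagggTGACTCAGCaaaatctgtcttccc
Gclc, region at -3604 bp, chr9:77750730-77750768, minus strand: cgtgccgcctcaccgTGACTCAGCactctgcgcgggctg
Sod1, in the promoter region, chr16:90221013-90221041, minus strand: caggccacggTGACTCAGCacttagcggg
Gpx1, in the region that covers the promoter, chr9:108342299-108342327, plus strand: gcccacctccTGACTCAGCagtccaaaca

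The upstream region of Hmox1 at -9592 bp, measured from the TSS to the middle of the region, held 3 copies. Among the 7145 regions whose length was within 10% of its 985 bp, 0.014% held as many. For the regions with 1 copy this share was 2.23% at -3851 bp of Hmox1, 2.54% at Gclc, 4.66% at Sod1 and 13.6% at Gpx1. The region at -9592 bp ranged from 14.3 to 17.6 CPM in young and from 15.3 to 17.8 CPM in aged libraries, so that the groups overlapped (log2 fold change 0.058, SE 0.15, adjusted p = 0.85). The region at -3851 bp held 1 copy and ranged from 14.1 to 17.7 CPM in young and from 10.3 to 19.2 CPM in aged liver (log2 fold change -0.27, SE 0.21, adjusted p = 0.46), and its log2 fold change ranged from -0.47 to -0.14 when a library was left out. Both stretches lie in the known upstream enhancers of Hmox1, where NRF2 and its competitor BACH1 bind. The region of Gclc at -3604 bp had 30.5, 31.7 and 41.6 CPM in young replicates 1 to 3 and 43.4, 39.4, 42.3 and 39.7 CPM in aged replicates 1 to 4. Only young replicate 3 lay within the aged range (log2 fold change 0.27, SE 0.13, adjusted p = 0.22), and without it the log2 fold change was 0.42. Of the 5 regions with the full element 0 passed the test in either direction with edgeR and 1 had an unadjusted p under 0.05. Of all 1318 regions with the element, edgeR called 46 more and 21 less accessible, and 319 had an unadjusted p under 0.05. With DESeq2 the Gpx1 promoter passed the threshold (adjusted p = 0.048, with a range of 0.023 to 0.87 over the alternatives). The median log2 fold change was 0.076 in the 5 member regions, 0.028 in all 1318 regions with the element and -0.037 in the 54362 regions without it. With offsets on mean abundance these medians were -0.057, 0.016 and 0.0093. Regions with the element were also stronger, at a median percentile of mean accessibility of 62.0 against 49.7 without it. The stretch of Gpx1 lies behind the end of the gene at 108340343, within the long region that also covers the promoter. A match describes the letters and was not tested as a binding site.

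Nfe2l2 lies on chromosome 2 from 75675513 to 75704641, and its promoter region, from 75703398 to 75705423, also covers the start of the noncoding gene E030042O20Rik. It had the highest accessibility of all members, 146, 138 and 113 CPM in young replicates 1 to 3 and 173, 146, 170 and 193 CPM in aged replicates 1 to 4. Aged replicates 1, 3 and 4 lay above all young libraries, whereas aged replicate 2 fell between young replicates 1 and 2. The log2 fold change was 0.36 (SE 0.13, adjusted p = 0.099), and the region passed the threshold with offsets on GC content (adjusted p = 0.027, with a range of 0.027 to 0.94 over the alternatives). Within and behind the gene the values went the other way. All 6 of the regions downstream of the start had a log2 fold change below 0, from -0.60 to -0.093, and 0 of them passed the test in edgeR or DESeq2, with 1 at an unadjusted p under 0.05 in edgeR. The region upstream at -8261 bp had a log2 fold change of 0.14 (SE 0.26, adjusted p = 0.78).

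Keap1, the repressor of NRF2, lies on chromosome 9 from 21229730 to 21239361 and is transcribed from the minus strand. Its promoter region, from 21237339 to 21239544, had 50.7, 52.9 and 52.5 CPM in young and 52.1, 54.7, 62.3 and 56.6 CPM in aged liver. The young libraries lay close together and aged replicate 1 lay within their range (log2 fold change 0.11, SE 0.11, adjusted p = 0.55, and 0.066 on the log2 scale without aged replicate 3). The log2 fold change was larger at the shared promoter of S1pr5 and Gm48303, at -10077 bp, where every aged library, from 72.6 to 87.3 CPM, exceeded every young one, from 50.9 to 70.9 CPM. The log2 fold change there was 0.42 (SE 0.13, adjusted p = 0.064 with edgeR, 0.030 with DESeq2 and 0.019 with offsets on GC content). S1pr5 encodes a sphingosine-1-phosphate receptor and is no part of the NRF2 pathway.

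Sod1 encodes the copper and zinc superoxide dismutase of the cytosol. Its promoter region on chromosome 16, from 90220381 to 90222603, had 51.9, 51.7 and 58.7 CPM in young and 57.0, 59.0, 60.9 and 51.0 CPM in aged liver. The highest and the lowest of these values were both aged libraries, so the groups overlapped throughout (log2 fold change 0.076, SE 0.11, adjusted p = 0.72, and 0.043 to 0.14 on the log2 scale when a library was left out). Among the 5 regions of the locus 3 were below 0. The log2 fold change was -0.73 (SE 0.37, adjusted p = 0.24) at 7456 bp, in an intron of Scaf4. It was -0.80 (SE 0.36, adjusted p = 0.18) at 8928 bp, at the Scaf4 promoter. The region that passed the test was also not at Sod1 itself. It was a weak region from 90235804 to 90236146 in an intron of the neighbouring gene Scaf4, which encodes a factor of RNA polymerase II termination, at 15221 bp behind the Sod1 start. It had 3.33, 2.12 and 1.97 CPM in young and 0.88, 0.79, 0.93 and 0.76 CPM in aged liver, so that all aged libraries were below all young ones (log2 fold change -1.55, SE 0.37, adjusted p = 0.031). It rested on 4 to 10 reads in each aged library and 12 to 56 in each young one. The adjusted p was 0.14 without young replicate 1, 0.080 without young replicate 2, 0.084 without aged replicate 1, 0.074 without aged replicate 3, 0.063 with aged replicates 1 and 3 summed and 0.25 with offsets on mean abundance, where the log2 fold change was -0.91. The adjusted p ranged from 0.020 to 0.25 over the alternatives. When a library was left out, the log2 fold change of this region was -1.68 to -1.28.

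Sod2 encodes the manganese superoxide dismutase of mitochondria. Inside the gene, the region on chromosome 17 from 13015724 to 13016178, which overlaps an annotated UTR exon of Sod2, had 3.98, 3.44 and 4.44 CPM in young and 1.58, 1.96, 0.93 and 1.40 CPM in aged liver. The highest aged library was well below the lowest young one, and accessibility fell with a log2 fold change of -1.38 (SE 0.31, adjusted p = 0.025), or 2.59-fold. Each aged library held 4 to 18 reads there. The adjusted p was 0.092 without young replicate 1, 0.074 without young replicate 2, 0.070 without aged replicate 1, 0.073 without aged replicate 3, 0.055 with aged replicates 1 and 3 summed, and 0.14 with offsets on mean abundance, with a range of 0.016 to 0.14 over the alternatives. When a library was left out, the log2 fold change of this region was -1.49 to -1.26. The promoter region at the start of the gene had the opposite sign, with a log2 fold change of 0.25 (SE 0.099, adjusted p = 0.14) and no overlap between the groups. Of all counts at the Sod2 locus, the promoter held 92.0%, 94.5% and 94.1% in young and 97.9%, 96.9%, 97.1% and 97.8% in aged liver.

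Cat encodes catalase, the peroxisomal enzyme that turns hydrogen peroxide into water and oxygen, and was the only member whose main promoter passed the test. Its promoter region lies on chromosome 2 from 103484078 to 103486068, at the start of the gene, which extends to 103453849 on the minus strand. It had 61.4, 69.8 and 54.8 CPM in young and 82.4, 87.1, 87.8 and 93.4 CPM in aged liver. The lowest aged library exceeded the highest young one, and accessibility rose 1.41-fold (log2 fold change 0.49, SE 0.11, adjusted p = 0.027). This was 1 of the 10 main promoters, while 4.48% of all promoter regions were more accessible. In the same comparison 0 of the 10 were less accessible, where 2.06% of all promoter regions were. At an unadjusted p under 0.05, 5 of the 10 were higher and 0 lower in edgeR, against 23.0% and 9.13% of all promoter regions. In the highest decile of mean accessibility, where 8 of the 10 lie, 2995 of 5568 regions had such a p in either direction. There 652 regions were more and 13 less accessible at the adjusted threshold. Of the 10 main promoters, DESeq2 called 2 higher and 0 lower, against 10% and 2.22% of all promoter regions. The adjusted p at Cat was 0.095 without young replicate 1, 0.054 without young replicate 2, 0.064 without aged replicate 1, 0.078 without aged replicate 3 and 0.064 with aged replicates 1 and 3 summed. When a library was left out, the log2 fold change at Cat was 0.43 to 0.59. With offsets on mean abundance the log2 fold change was 0.21 and the adjusted p was 0.31, the highest over the alternatives, of which the lowest was 0.0035.

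The 250 bases before the RefSeq start of Cat are shown because they carry the sequence of the promoter that rose. They are on the minus strand of chr2:103485154-103485403 in GRCm38.p6, and capitals mark CCAAT boxes (CCAAT, or ATTGG on the other strand) and a GC box (GGGCGG).
Cat, upstream of the start: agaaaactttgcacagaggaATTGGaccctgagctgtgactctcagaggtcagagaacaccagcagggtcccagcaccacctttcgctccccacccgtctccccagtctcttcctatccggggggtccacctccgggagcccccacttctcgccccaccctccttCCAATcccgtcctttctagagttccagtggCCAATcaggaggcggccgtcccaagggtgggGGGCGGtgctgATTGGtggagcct

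This stretch held 4 CCAAT boxes, and 0.84% of 32851 RefSeq promoters of the same length held as many. CCAAT boxes, which the factor NF-Y binds, occurred in 33.8% of these promoters, and among the 8 member genes with an entry they occurred in Cat, Sod1, Sod2 and Txnrd1. The GC box, which factors of the SP family bind, occurred in 32.7% of all promoters and in 7 of the 8 member genes. The core of the antioxidant response element occurred in 10.2% of all promoters and, among members, in Nfe2l2, Sod1 and Txnrd1 but not in Cat. The E-box CACGTG occurred in 6.02% of all promoters and in 0 of the 8 genes. Hmox1 and Gclc had no entry.

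Along the catalase locus, the 10 regions from -8599 bp to 23725 bp had log2 fold changes above 0 and the 5 regions from 25221 bp on had values below 0. The region 4251 bp into the gene had 29.3, 37.8 and 40.3 CPM in young and 44.3, 54.5, 54.6 and 33.7 CPM in aged liver, with aged replicate 4 inside the young range (log2 fold change 0.38, SE 0.17, adjusted p = 0.18). The strongest region outside the promoter, at 18667 bp, ranged from 60.8 to 75.5 CPM in young and from 70.5 to 95.5 CPM in aged liver (log2 fold change 0.22, SE 0.13, adjusted p = 0.30, and 0.13 on the log2 scale without aged replicate 2). The 2 regions behind the gene were among those below 0. At 39168 bp from the start, every aged library, from 2.80 to 4.45 CPM, was below every young one, from 6.20 to 7.63 CPM (log2 fold change -0.82, SE 0.24, adjusted p = 0.059). At 33632 bp the region overlaps an exon of the neighbouring gene Elf5 and had a log2 fold change of -0.33 (SE 0.14, adjusted p = 0.17). In edgeR with TMM scaling the promoter was the only one of the 15 regions past the threshold, and with total counts the region at 39168 bp passed it as well (log2 fold change -0.94, adjusted p = 0.037). With total counts 6 of the 15 regions were above 0.

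**Figure D2:**
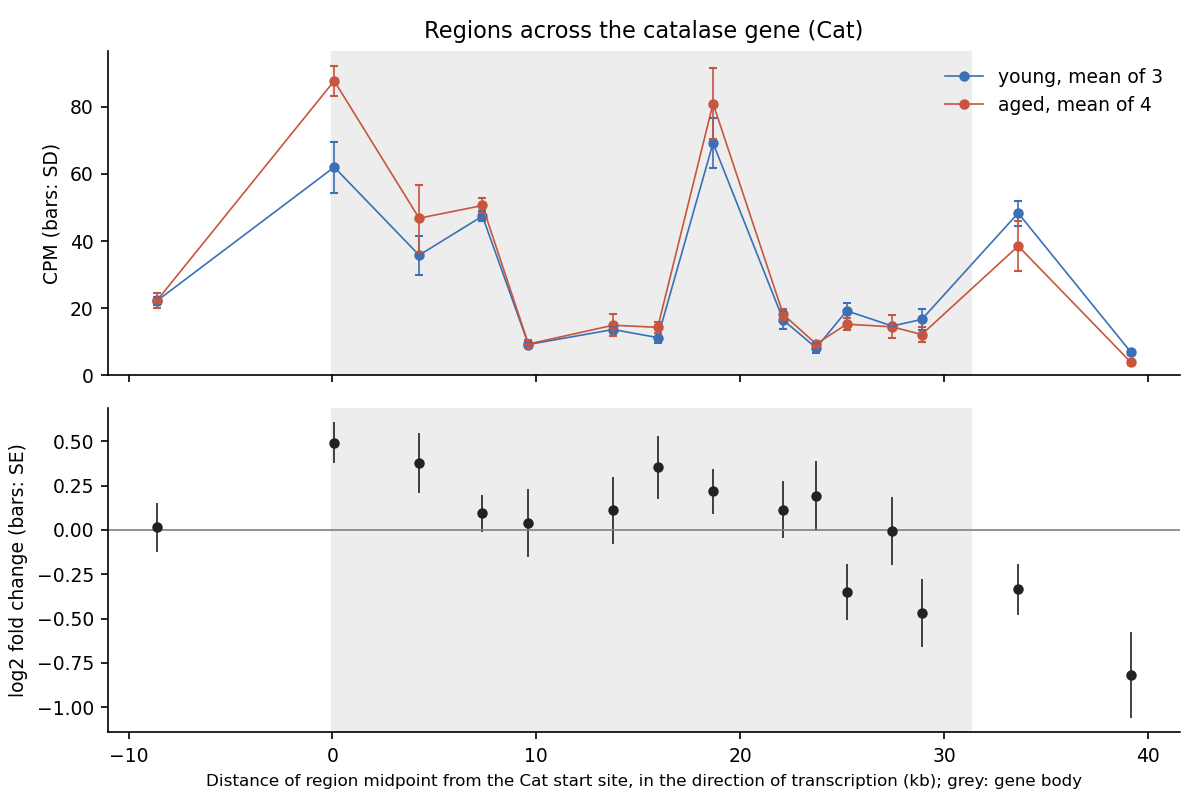
Accessibility across the catalase gene in young and aged liver (upper panel, mean CPM with SD) and log2 fold change of aged over young (lower panel, with SE), against the distance of each region from the Cat start site in kb. The promoter stands at 62.0 CPM in young and 87.7 CPM in aged liver, and the regions beyond the end of the gene lie below 0.

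Gpx1 encodes the glutathione peroxidase of the cytosol, which reduces peroxides at the expense of glutathione. Its promoter region, on chromosome 9 from 108338740 to 108343612, is 4873 bp long and covers the entire gene. It had 109, 113 and 132 CPM in young and 139, 145, 164 and 141 CPM in aged liver. All aged libraries were above all young ones, but young replicate 3 came close to aged replicate 1 (log2 fold change 0.32, SE 0.11, adjusted p = 0.11). The other 2 regions of the locus had the same pattern without overlap. The region at 5717 bp ranged from 11.3 to 13.6 CPM in young and from 16.3 to 17.7 CPM in aged liver (log2 fold change 0.48, SE 0.16, adjusted p = 0.082). The promoter of the neighbouring ubiquitin protease gene Usp4 had a log2 fold change of 0.23 (SE 0.11, adjusted p = 0.24). All 3 regions of Gpx1 were thus higher in every aged library, and 0 passed the test in edgeR, with 2 at an unadjusted p under 0.05. The promoter passed it with DESeq2 and with offsets on GC content (adjusted p = 0.023), and the region at 5717 bp with offsets on GC content (adjusted p = 0.040) and with limma (adjusted p = 0.047), where its range over the alternatives was 0.040 to 0.25.

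Gclc encodes the catalytic subunit of glutamate-cysteine ligase, which makes the rate-limiting step of glutathione synthesis. Its promoter region on chromosome 9, from 77753268 to 77755461, had 50.6, 51.8 and 55.1 CPM in young and 63.3, 53.2, 67.5 and 51.8 CPM in aged liver. Aged replicates 2 and 4 lay within the young range (log2 fold change 0.17, SE 0.12, adjusted p = 0.42), and the value was 0.10 without aged replicate 3. The region at its second start site, 12123 bp further on, ranged from 5.46 to 6.73 CPM in young and from 3.92 to 5.60 CPM in aged liver (log2 fold change -0.37, SE 0.23, adjusted p = 0.35). The 3 regions upstream of Gclc had log2 fold changes from 0.25 to 0.28 and the 4 behind the promoter from -0.37 to -0.035, and 0 of these 7 passed the test in edgeR or DESeq2 or had an unadjusted p under 0.05 in edgeR.

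Txnrd1 encodes the thioredoxin reductase of the cytosol, which keeps thioredoxin reduced with NADPH. Its main promoter region on chromosome 10, from 82858707 to 82860802, had 69.2, 67.1 and 74.6 CPM in young and 81.1, 81.0, 81.7 and 85.9 CPM in aged liver. All aged libraries lay above the young ones (log2 fold change 0.23, SE 0.10, adjusted p = 0.18), and the region passed the threshold with offsets on GC content (adjusted p = 0.042, with a range of 0.042 to 0.83 over the alternatives). Deeper in the gene, the region at 19417 bp had 12.1, 13.9 and 8.39 CPM in young and 16.8, 18.2, 17.5 and 16.5 CPM in aged liver. It had the highest log2 fold change of the 63 regions, again without overlap (0.55, SE 0.18, adjusted p = 0.083), and passed the threshold with offsets on GC content (adjusted p = 0.041, with a range of 0.041 to 0.17 over the alternatives). Among the weaker regions of the locus, the one at 42270 bp, behind the gene, had 5.97 to 7.87 CPM in young and 3.03 to 5.30 CPM in aged libraries (log2 fold change -0.66, SE 0.25, adjusted p = 0.12).

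Nqo1, which encodes a quinone reductase, and Hmox1, which encodes the inducible haem oxygenase, are the classical targets of NRF2. The Nqo1 promoter, on chromosome 8 from 107402845 to 107403853, had 21.4, 14.8 and 11.8 CPM in young and 16.1, 17.7, 19.1 and 15.3 CPM in aged liver. The young libraries spanned the entire aged range (log2 fold change 0.071, SE 0.19, adjusted p = 0.86). The Hmox1 promoter, on chromosome 8 from 75093271 to 75094124, had 22.8, 22.8 and 27.5 CPM in young and 22.4, 27.9, 23.3 and 19.1 CPM in aged liver. Here the aged libraries spanned the young range, and it was the only main promoter with a log2 fold change below 0 (-0.070, SE 0.15, adjusted p = 0.82). These were also the 2 weakest of the main promoters in CPM. An adjusted p above the threshold does not show that a region was equal at both ages.

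Every aged library exceeded every young one at 4 of the 10 main promoters, which was the case in 20.4% of all promoter regions and in 2488 of the 5568 regions of the highest decile of mean accessibility, where 8 of the 10 lie.

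**Figure D3:**
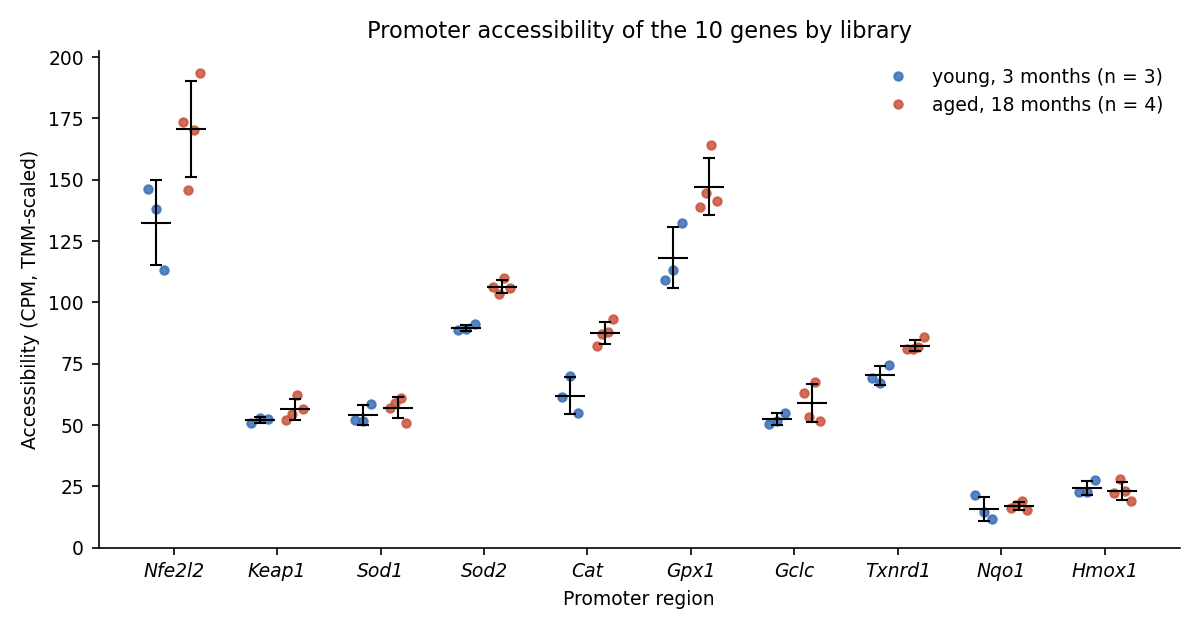
Accessibility of the main promoter region of each gene in CPM (y axis) in the 3 young and 4 aged libraries (points), with the mean and SD of each group in black. The groups stand apart at Cat, Sod2, Gpx1 and Txnrd1 and overlap at the other 6 promoters.

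Levels were compared between genes per length of the region, as the mean CPM per kb over the 7 libraries. The Nfe2l2 promoter was highest at 76.2 ± 13.1 CPM per kb (SD, n = 7), followed by Sod2 at 65.8 ± 6.04 and Cat at 38.5 ± 7.41. Txnrd1 had 36.9 ± 3.36, Hmox1 27.7 ± 3.58 and Gpx1 27.7 ± 3.88 CPM per kb. Gclc had 25.6 ± 2.98, Sod1 25.1 ± 1.84, Keap1 24.7 ± 1.78 and Nqo1, the lowest, 16.4 ± 3.09 CPM per kb. Neighbours in this order overlapped in their ranges over libraries in 7 of 9 pairs, with Sod2 against Cat and Keap1 against Nqo1 as the exceptions. The order differed within the ages, since Txnrd1 (33.6 CPM per kb) was above Cat (31.1) and Sod1 (24.3) above Gclc (23.9) in young liver, and Gpx1 (30.2) was above Hmox1 (27.1) in aged liver. The Nfe2l2 promoter was above 99.3% of all promoter regions in mean log2 CPM, and the Nqo1 promoter above 34.3%.

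The share of a locus's counts that fell on its own promoters was compared as a measure that does not depend on the scaling of the libraries. It was higher in every aged than in every young library at 2 genes, overlapped at 8 and was lower without overlap at 0. The share was not computed at the loci of other genes, so these counts have no background beside them. Across the entire table strong regions tended to rise and weak ones to fall. The median log2 fold change was 0.28 in the highest and -0.42 in the lowest decile of mean accessibility. Whether the shares follow from this was not tested. The share of Cat was 15.7%, 16.4% and 14.1% in young and 19.2%, 17.7%, 20.3% and 23.2% in aged liver, a difference of 4.70 percentage points. At Sod2 the difference was 3.89 points. At Nfe2l2 it was 7.58 points, from 72.4% ± 1.30 (SD, n = 3) to 79.9% ± 5.58 (SD, n = 4), and aged replicate 2, at 73.0%, overlapped the young libraries. At Keap1 the difference was -1.96 points, but -0.58 points without young replicate 2 and 3.91 points with flanks of 2 kb. At Hmox1 it was -2.44 points, but -0.73 points without young replicate 3. The smallest p that an exact two-sided permutation test can give for 3 against 4 libraries is 0.057, so these shares were not tested.

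Changes with age were related to the mean accessibility of a region across the entire table, and the member promoters are strong regions. Of the 10 main promoters, 8 were in the highest decile of all regions in mean log2 CPM. In that decile the log2 fold change was above 0 in 93.8% of all regions and its median was 0.28, whereas in the lowest decile it was above 0 in 21.2% and its median was -0.42. Among the members, all 12 regions of the highest decile and 0 of the 5 regions of the lowest decile were above 0. Log2 fold changes at the promoters of Cat, Gpx1, Nfe2l2 and Nqo1 lay above the median of their decile, and those of Sod1, Sod2, Keap1, Gclc, Txnrd1 and Hmox1 lay below it. The Cat promoter was also above the upper quartile of its decile, 0.38.

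The sign at most member promoters moved with this relation. With TMM scaling, 9 of the 10 main promoters were above 0, with a median log2 fold change of 0.20, against 61.1% of all promoter regions and a median of 0.094. With offsets fitted on mean abundance, Cat (0.21) and Nqo1 (0.046) were above 0 and the other 8 were from -0.16 to -0.019, with a median of -0.064. With total counts, which shifted the median of all regions from -0.035 to -0.15, 6 of the 10 were above 0.

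**Figure D4:**
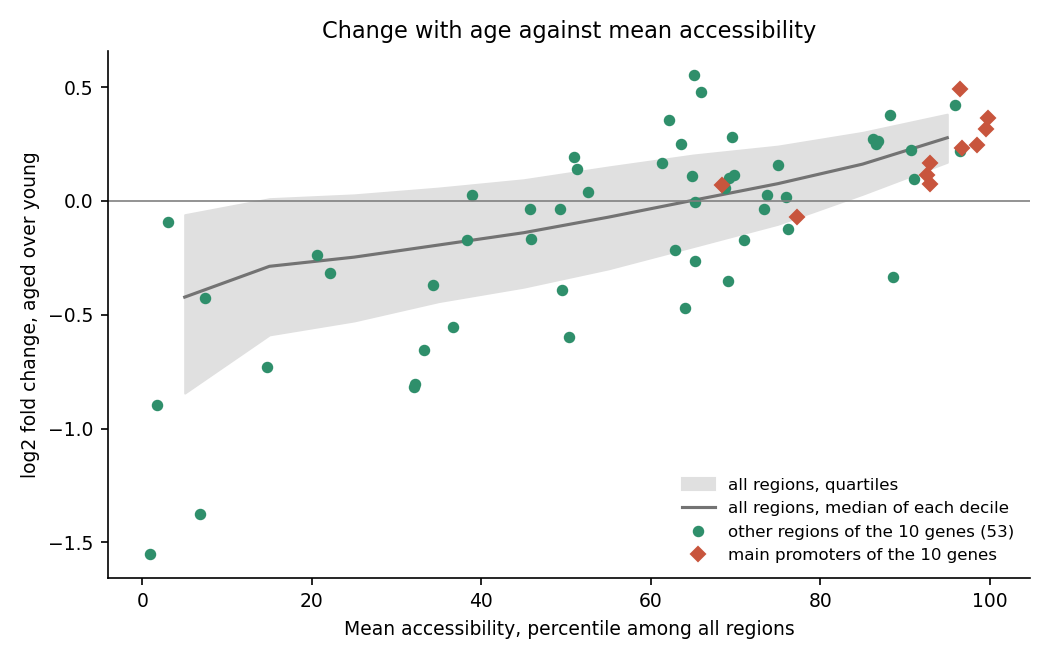
Log2 fold change of aged over young (y axis) against the percentile of mean accessibility among all regions (x axis), for the 10 main promoters and the other 53 regions, with the median (line) and quartiles (grey) of each decile of all regions. The medians run from -0.42 in the lowest to 0.28 in the highest decile, and most member promoters lie at the right, near that line.

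Around the 10 genes, the promoters of 67 further redox genes were examined, of which 62 had an accessible promoter region. Of these, 6 were more accessible in aged liver, or 9.68% against 4.48% of all promoter regions. Among the 5568 regions of the highest decile of mean accessibility, 652 were more accessible. Of the 62 promoters 0 were less accessible, against 2.06% of all promoter regions. In edgeR without adjustment 22 had a p under 0.05 with a higher and 2 with a lower value, against 23.0% and 9.13% of all promoter regions. DESeq2 called 12 higher and 0 lower (10% and 2.22% of all promoter regions), and limma called 9 higher and 1 lower (7.87% and 2.90%). The median log2 fold change was 0.23, and 48 of the 62 were above 0, where the median of all promoter regions was 0.094, 61.1% of them were above 0 and 93.8% of the regions of the highest decile were. With offsets on mean abundance 0 were called, the median was -0.0090 and 30 of 62 were above 0. The 6 called promoters then had log2 fold changes of 0.12 at Btrc, 0.24 at Txnrd3, 0.10 at Idh1, 0.19 at Pgd, 0.27 at Aox1 and 0.27 at Gstm1. The count of calls was 0 without young replicate 1, young replicate 2 or aged replicate 1 and 2 without aged replicate 3. Over all regions the count of more accessible regions, 1360, was then 55, 196, 129 and 176 in the same order.

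Among 13 regulators of NRF2, 1 rose, Btrc, which encodes a receptor of the ubiquitin ligase that acts on NRF2 independently of KEAP1. Its promoter was at 63.3 CPM in young and 83.4 CPM in aged liver (log2 fold change 0.40, SE 0.11, adjusted p = 0.045). The log2 fold change was 0.52 (adjusted p = 0.055) at Rbx1, the ring subunit of the KEAP1 ligase, and 0.47 (adjusted p = 0.058) at Nfe2l1, a relative of NRF2. The small MAF gene Mafg, which had the strongest promoter of the group, was at 0.33 (adjusted p = 0.11). Nfe2l3, also a relative of NRF2, had the lowest value, 8.21 CPM in young and 4.97 CPM in aged liver, with no overlap (log2 fold change -0.73, SE 0.23, adjusted p = 0.069).

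Of the 9 promoters of glutathione synthesis and use, 0 passed the test in edgeR and 2 had an unadjusted p under 0.05. The log2 fold change was 0.35 (adjusted p = 0.097) at Gpx4, the peroxidase of membrane lipids, 0.37 (adjusted p = 0.18) at Chac1, a glutathione-degrading enzyme, and 0.22 (adjusted p = 0.22) at Gclm, the modifier subunit of the ligase that Gclc belongs to. In the thioredoxin and peroxiredoxin group 14 of 15 promoters were above 0, but 11 with total counts and 6 with offsets on mean abundance. The promoter that rose was that of Txnrd3, a thioredoxin reductase known from testis, from 72.7 to 107 CPM (log2 fold change 0.55, SE 0.13, adjusted p = 0.033). Prdx6 and Txn1 had log2 fold changes of 0.39 (adjusted p = 0.070) and 0.36 (adjusted p = 0.062).

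Of 6 promoters for superoxide, haem and iron handling 0 passed the test in edgeR, and 3 had an unadjusted p under 0.05. The highest values were 0.39 (adjusted p = 0.069) at Ftl1, a ferritin subunit, 0.38 (adjusted p = 0.20) at Blvrb, a biliverdin reductase, where it was 0.17 without young replicate 3, and 0.28 (adjusted p = 0.10) at Ccs, the copper chaperone of SOD1. Of 6 promoters for the supply of NADPH 2 rose. Idh1, the cytosolic isocitrate dehydrogenase, went from 115 to 160 CPM (log2 fold change 0.47, SE 0.10, adjusted p = 0.022), and Pgd, of the pentose phosphate pathway, from 37.8 to 49.6 CPM (log2 fold change 0.39, SE 0.11, adjusted p = 0.049). At Tkt, of the same pathway, the log2 fold change was 0.28 (adjusted p = 0.12).

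Of 13 promoters for conjugation and export 2 rose. These were Aox1, an aldehyde oxidase, from 62.0 to 91.0 CPM (log2 fold change 0.55, SE 0.10, adjusted p = 0.013), and Gstm1, a glutathione transferase, from 56.4 to 81.6 CPM (log2 fold change 0.54, SE 0.14, adjusted p = 0.036). Ephx1, an epoxide hydrolase, and Abcc2, the canalicular conjugate exporter, had log2 fold changes of 0.26 (adjusted p = 0.26) and 0.26 (adjusted p = 0.23). When a library was left out, the value ranged from 0.16 to 0.40 at Ephx1 and from 0.17 to 0.35 at Abcc2. Gstm1 belongs to a family of closely related genes, and whether reads were shared between copies was not tested.

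**Figure D5:**
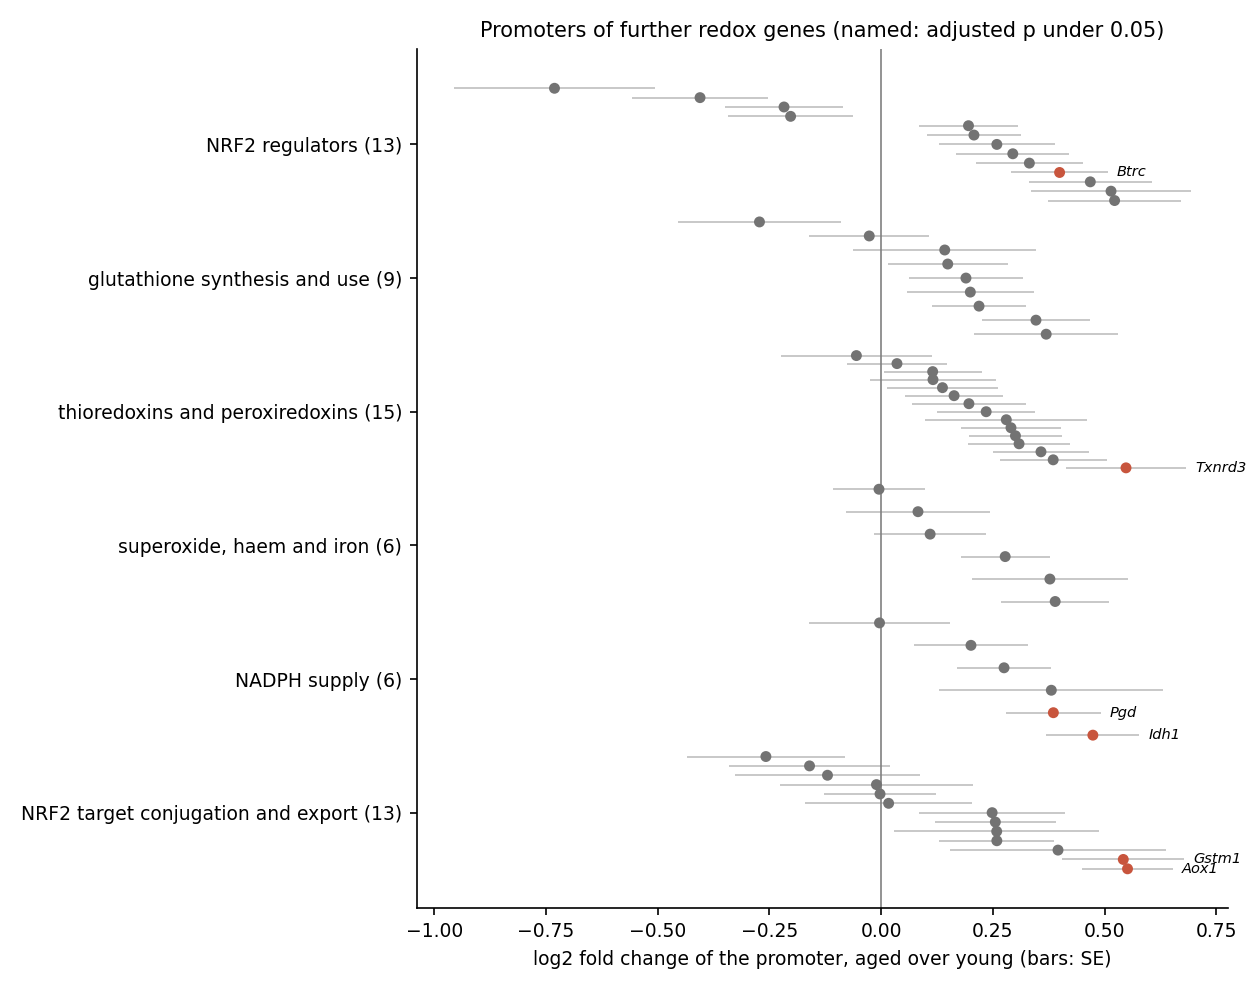
Log2 fold change of aged over young (x axis, with SE) for the promoters of 62 further redox genes in 6 groups, whose size is given in parentheses. The 6 red and named promoters had an adjusted p under 0.05, all of them above 0.

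The cell types that liver can hold were read from the promoters of their markers. The promoters of 6 hepatocyte markers, among them Alb and Hnf4a, summed to between 476 and 559 CPM in young and between 613 and 715 CPM in aged libraries. Of the 6, 5 had a log2 fold change above 0 and 1 was more accessible, against 61.1% and 4.48% of all promoter regions. Of 6 stellate cell markers 3 had a promoter region, and these summed to 26.6 to 29.1 CPM in young and 16.1 to 23.5 CPM in aged liver. Sums for sinusoidal endothelial cells (64.0 to 70.8 CPM in young, 54.1 to 88.2 CPM in aged, 4 of 6 markers) and cholangiocytes (43.8 to 52.0 CPM, 39.4 to 56.9 CPM, 3 of 5 markers) overlapped. Of the Kupffer cell markers only Clec4f had a promoter region, at 2.22 to 2.65 CPM in young and 0.59 to 2.80 CPM in aged liver, and of 6 lymphocyte markers 0 had one. Neither the part of these differences in the results nor their relation to the mean accessibility of the regions was tested.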

How the data were processed

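ATAC-seq counts for 55680 regions in 3 young and 4 aged liver libraries were used. The authors trimmed the reads with cutadapt 1.13, aligned them to GRCm38 with Bowtie2 2.4.1, removed duplicates and mitochondrial reads, called peaks with MACS2 2.2.7, and deposited raw counts from featureCounts, without normalization, for regions in which at least 2 libraries had a peak. The counts carry no molecular identifiers, and all 7 columns were matched to samples by name. Regions were annotated with GENCODE M21 (bedtools 2.31.1, Python 3.11.15) and their sequence was read from GRCm38.p6 with samtools 1.23.1. Upstream sequences were from RefSeq. With minimap2 2.31, 0 of the 63 regions had another copy covering at least 80% at 95% identity.

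Age was tested on all regions with edgeR 4.0.16 in R 4.3.3, by the quasi-likelihood test with TMM scaling, no filter on low counts and age as the single factor, with p adjusted by Benjamini-Hochberg and a threshold of 0.05, and the fit was tested on simulated data. Alternatives were DESeq2 1.42.0, limma 3.58.1 (voom), total counts, loess offsets (span 0.3) on mean abundance or GC content, filterByExpr, leaving out each library, summing each of 6 pairs of aged libraries, a replicate block, flanks of 2 kb and promoters of 1000 bp. A fit of the same 6 libraries without the block was added after seeing the data. Members, gene lists and tests were chosen with earlier results of these data known. Named regions were the main promoters (the strongest in mean log2 CPM where several overlapped), regions past the threshold, the strongest region of each gene outside promoters, regions outside promoters with at least 2 element cores, and in each further group the 3 genes with the smallest adjusted p and the strongest promoter. Other regions were named for their position or for their values. Coordinates are as deposited.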

Additional observations from a re-analysis of the deposited data

Results flagged for a closer look

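At the Txnrd1 promoter, aged replicate 4 had 6.43 log2 CPM, whereas the other 3 aged libraries lay between 6.34 and 6.36 and the young libraries between 6.07 and 6.23. Its gap to the nearest aged library was 0.85 of the range of the 4 aged libraries, above Dixon's 95% critical value for 4 samples. It was 1 of 45 regions examined, and chance alone flags about 1 in 20.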

How the results depend on the processing

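Among the 63 regions, the 1 more accessible region became 7 with GC offsets, 3 with limma, 3 with DESeq2 and 0 with abundance offsets, and the 2 less accessible regions became 0 with abundance offsets and 1 with flanks of 2 kb. Leaving out 1 library gave 0 to 2 more accessible and 0 to 3 less accessible regions. Over all regions it gave 55 to 1630 more and 133 to 2600 less accessible ones. Summing aged replicates 1 and 3 gave 0 and 0 among the 63, and 269 and 693 over all regions. Among the 62 further promoters, the number called more accessible, 6, became 3 with total counts, 0 with abundance offsets, 17 with GC offsets and 12 with DESeq2. Over all regions the number, 1360, became 543, 247, 3497 and 2760 in these settings. With aged replicates 1 and 3, 1 and 4, 2 and 4, and 3 and 4 summed, 2, 3, 10 and 3 of the 62 were called. These sums gave 269, 1145, 2164 and 727 over all regions. A left-out library gave 0 to 7 of the 62 and 55 to 1630 of all regions. Total counts, limma and the sum of aged replicates 2 and 4 each called 1 of the 62 less accessible, where the number without these changes was 0. Across the alternatives 784 of 945 log2 fold changes of named regions kept their sign and their side of the threshold, 76 lost the threshold, 31 gained it and 54 changed sign. The cause was not tested.

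The replicate numbers did not pair the libraries. Same-numbered young and aged libraries had correlations of deviations of -0.12, 0.057 and 0.030, and these shared only a number. With the replicate block, 2 member regions were more and 2 less accessible, and 4 further promoters were called, against 2, 3 and 4 in the same 6 libraries without the block. The block turned the Hmox1 promoter to 0.029 and the region at -8599 bp of Cat to -0.012 (0.022 and -0.012 without the block).

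With abundance offsets the log2 fold change turned to -0.16 at the Sod1 promoter, -0.077 at Sod2, -0.056 at Gpx1, -0.019 at Nfe2l2, -0.12 at Keap1, -0.071 at Gclc, -0.055 at Txnrd1, -0.078 at Mafg, -0.11 at Gclm, -0.031 at Ccs, -0.015 at Tkt, -0.034 at Ephx1 and -0.022 at Abcc2. It also turned to -0.033 at the -3579 bp region of Sod1, -0.053 at the 18667 bp and -0.061 at the -8599 bp region of Cat, and 0.016 at the 9247 bp region of Txnrd1. With total counts it turned to -0.042 at the promoter of Sod1, -0.0054 at that of Keap1 and -0.044 at that of Nqo1, and to -0.086 (Sod1, -3579 bp), -0.090 (Nqo1, -2637 bp), -0.060 (Hmox1, -9592 bp) and -0.10 (Cat, -8599 bp). GC offsets gave 0.0025 at the Hmox1 promoter and -0.0078 at Nqo1 -2637 bp, and limma -0.029 at Sod1 -3579 bp and -0.034 at Nfe2l2 -8261 bp. Sums of aged replicates gave -0.048, -0.032 and -0.012 at Sod1 -3579 bp (1 and 2, 2 and 3, 2 and 4), -0.012, -0.068, -0.027 and -0.036 at Nqo1 -2637 bp (1 and 3, 2 and 3, 2 and 4, 3 and 4), and -0.0057 and -0.017 at Cat -8599 bp (1 and 2, 2 and 4). Leaving out 1 library gave -0.073 to 0.33 at the Nqo1 promoter, -0.17 to 0.027 at the Hmox1 promoter, -0.11 to 0.14 at Sod1 -3579 bp, -0.099 to 0.29 at Nfe2l2 -8261 bp, -0.21 to 0.39 at Nqo1 -2637 bp, -0.0024 to 0.12 at Hmox1 -9592 bp and -0.033 to 0.071 at Cat -8599 bp.

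With flanks of 2 kb the difference in promoter share was 3.91 points at Keap1, 0.00 at Hmox1, where the promoter was then the only region, and 3.99 at Gclc, and promoters of 1000 bp left the 6 and 0 calls. Weak regions such as those called at Sod1 and Sod2 held under 20 reads per aged library, and the size of change that this depth can show was not tested.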
